A study of Mus musculus with 3 samples.

Results

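The subunits and regulators of the transcription factor NF-kB were followed in C2C12 cells, an established line of mouse myoblasts, the precursors of muscle fibres. The members were chosen by symbol: every probe set annotated to Nfkb2, Rela, Relb, Rel, Nfkbia, Nfkbib, Tank, Ikbkb and Ikbkg was used, and Nfkb1, which completes the list of 10 genes, was not analysed here. These 9 genes, of 12393 with a named probe set, had 19 probe sets. The groups were cells left untreated, cells that received a construct for enhanced green fluorescent protein (EGFP), which controls for the transfection itself, and cells that received diacylglycerol kinase zeta (DGK-zeta). This kinase turns the lipid messenger diacylglycerol into phosphatidic acid. Each of the 3 samples carries the label 12 h and was read on 1 array. Cells of all groups grew in medium with fetal calf serum, and transfections used a lipid reagent (FuGene) after 18 h of culture. The labels give neither the share of cells that took up a construct nor whether the untreated cells received the reagent. Since each group has 1 array, differences could not be set against the spread between replicates and no test was run.

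NF-kB is a family of dimeric transcription factors held in the cytoplasm by inhibitors of the I-kappa-B family. Signals from cytokine and pathogen receptors activate the I-kappa-B kinase complex, which marks the inhibitors for destruction and lets the dimers enter the nucleus, where they switch on genes of inflammation and survival and also the genes of their own inhibitors. In muscle cells the pathway is known for its part in growth, in the block of differentiation and in wasting.

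A signal is the deposited intensity of a probe set, in arbitrary units on a linear scale. A probe set was counted as measured on an array at a signal of 107 or more, the median of all values pooled, and lower values were set to this floor before a ratio was taken. Of the 19 member probe sets 13 were measured on all 3 arrays, 2 on the EGFP array alone and 4 on none. The transfected gene served as the check of the labels: Dgkz had signals of 1500.1 in untreated cells, 1053 with EGFP and 13466 with DGK-zeta by its brightest probe set. Among myoblast markers Myf5, Des, Cdh15, Vcam1 and Itga7 were measured on all 3 arrays, while Myod1, Pax7 and Myog were under the floor on each. Of 8 immune cell markers, Csf1r was measured on the untreated array (121) and none on the others, and Ptprc, the common leukocyte antigen, was between 0.672 and 11.4. The summed signal of the immune list was 273 in untreated cells, 238 with EGFP and 195 with DGK-zeta. The ratio of the 3' to the 5' control probe set of Actb was 1.27, 1.43 and 2.55 on the same arrays, and that of Gapdh 0.841, 0.902 and 0.931. The part of RNA quality in any difference of the DGK-zeta array was not tested. These are bulk samples, so fewer cells with a transcript and less of it per cell cannot be told apart.

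Promoter sequence is shown first, because Nfkb2, Rel and Nfkbia are known to be controlled by NF-kB itself and Nfkb2 and Tank differed most between the arrays. The windows come from RefSeq, on assembly GRCm38.p6, and run from 250 bases before to 50 bases after an annotated start. Of the 9 genes 7 had such windows, 15 in all. They were searched on both strands for the 10-base NF-kB consensus (the kappa-B site), counting overlapping matches separately. At least 1 match was found in 9 of the 15 member windows and in 8.46% of 32851 windows of all genes. The genes with a match were Nfkb2, Rel, Nfkbia and Tank, 4 of 7, where 9.55% of 27025 genes with windows had one. Windows of Nfkb2 and of Tank overlap in part, so these windows are not independent. Merged by position, the matches made 4 sites near Nfkb2, 1 at Rel, 1 at Nfkbia and 2 near Tank, 1 at each of its separate groups of starts. The following sequences are written in the direction of the gene, with matches to the consensus in capitals.
Nfkb2, chr19:46304487-46304786, + strand: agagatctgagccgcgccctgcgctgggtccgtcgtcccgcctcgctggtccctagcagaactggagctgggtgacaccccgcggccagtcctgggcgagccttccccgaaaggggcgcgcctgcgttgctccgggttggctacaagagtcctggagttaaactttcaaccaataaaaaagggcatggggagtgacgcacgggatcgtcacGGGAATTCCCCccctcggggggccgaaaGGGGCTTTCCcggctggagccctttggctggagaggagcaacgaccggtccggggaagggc
Nfkbia, chr12:55492598-55492897, - strand: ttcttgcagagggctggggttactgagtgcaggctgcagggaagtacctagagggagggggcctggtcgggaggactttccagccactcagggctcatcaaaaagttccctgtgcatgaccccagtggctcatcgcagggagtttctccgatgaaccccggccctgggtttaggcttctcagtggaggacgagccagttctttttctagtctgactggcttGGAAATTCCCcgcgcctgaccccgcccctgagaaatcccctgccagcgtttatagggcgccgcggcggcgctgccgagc
Tank, upstream start, chr2:61578307-61578606, + strand: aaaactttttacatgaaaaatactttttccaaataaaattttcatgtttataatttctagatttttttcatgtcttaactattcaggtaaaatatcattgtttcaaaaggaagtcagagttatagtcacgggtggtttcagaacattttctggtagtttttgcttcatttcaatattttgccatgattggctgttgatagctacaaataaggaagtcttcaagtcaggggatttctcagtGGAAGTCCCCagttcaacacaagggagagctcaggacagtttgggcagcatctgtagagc
Tank, downstream start, chr2:61592847-61593146, + strand: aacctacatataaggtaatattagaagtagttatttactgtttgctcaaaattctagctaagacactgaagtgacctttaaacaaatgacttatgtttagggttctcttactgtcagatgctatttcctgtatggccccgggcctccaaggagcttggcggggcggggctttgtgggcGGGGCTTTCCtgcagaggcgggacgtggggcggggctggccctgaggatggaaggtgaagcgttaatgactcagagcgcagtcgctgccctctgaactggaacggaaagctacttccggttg
The first Nfkb2 window held 3 matches, 2 of them overlapping, and 0.186% of all windows held 3 or more. The Nfkbia window held 1 match that begins 29 bases before the start, on the opposite strand. A match is a run of letters and no evidence that a factor bound there in these cells.

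**Figure D1:**
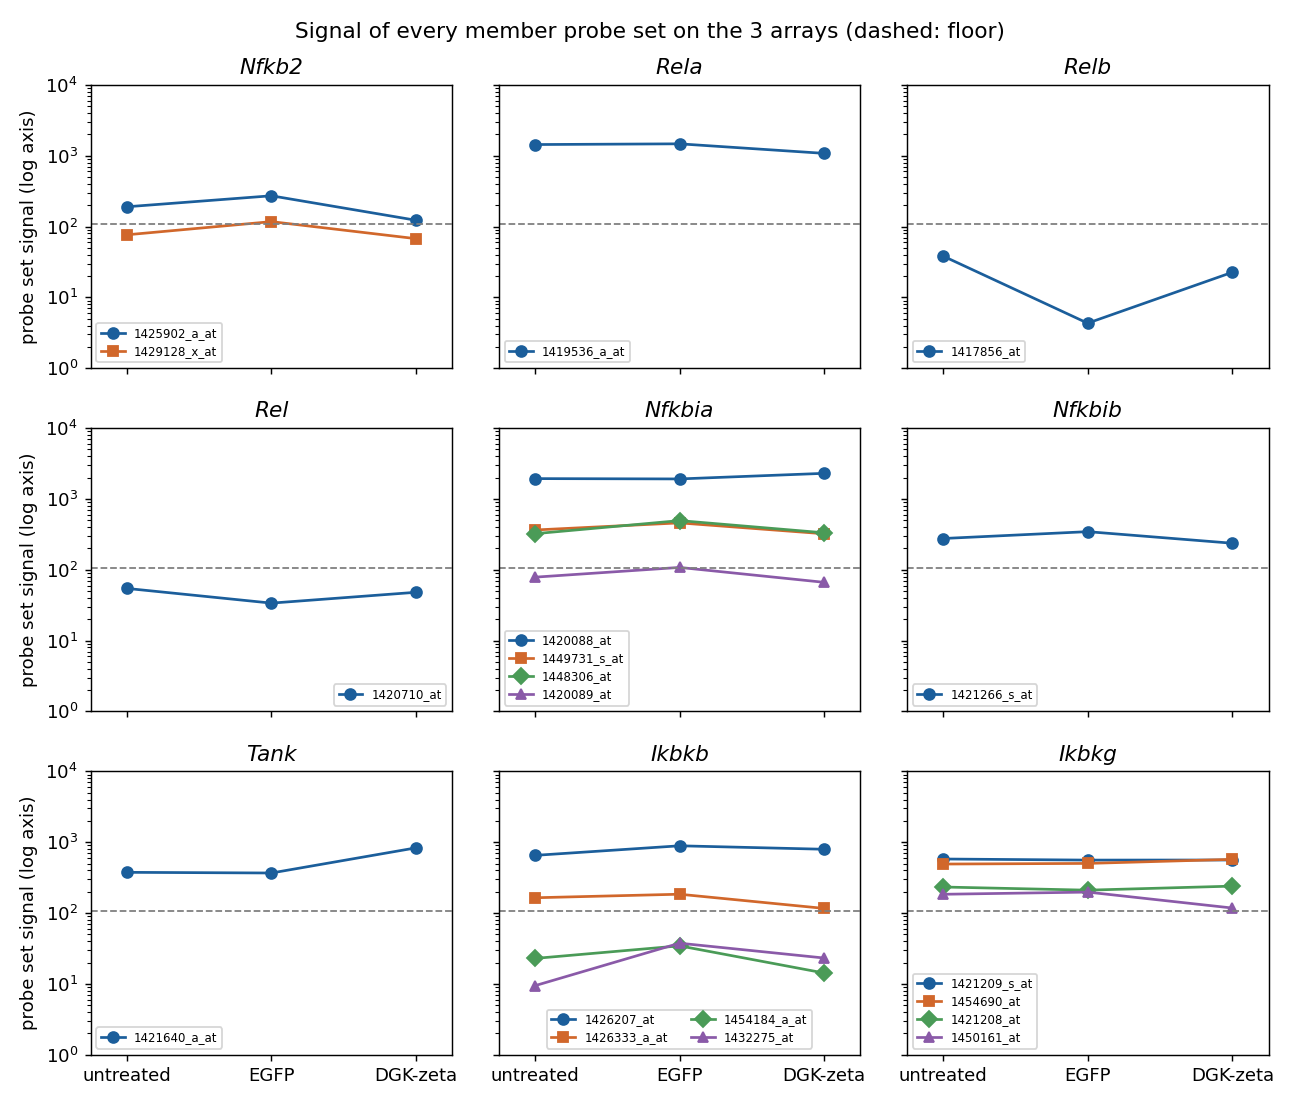
Signal of every probe set (log axis) of the 9 genes on the untreated, EGFP and DGK-zeta arrays, 1 array each, with 1 line per probe set; the dashed line is the floor of 107. Tank reaches 833 on the DGK-zeta array, Nfkb2 peaks on the EGFP array at 272, and Relb and Rel lie under the floor throughout.

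Among the DNA-binding subunits, Nfkb2 encodes a precursor that is cut to a subunit of the non-canonical pathway. Its brightest probe set (1425902_a_at) had signals of 190.3 in untreated cells, 272 with EGFP and 123 with DGK-zeta. It was thus high in EGFP and low in DGK-zeta cells, by 2.22-fold, and the signal in DGK-zeta cells was close to the floor. Against untreated cells Nfkb2 was 1.43-fold higher in EGFP and 1.55-fold lower in DGK-zeta cells. The other Nfkb2 probe set (1429128_x_at) had signals of 76.5, 117 and 67.4 and gave the same order of arrays, but it reached the floor in EGFP cells alone, so that its ratio is a bound of at least 1.10-fold.

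Rela, which encodes the subunit that carries most of the transactivation by NF-kB, had 1 probe set, with signals of 1439 in untreated cells, 1474 with EGFP and 1080.3 with DGK-zeta. The controls lay side by side and the DGK-zeta array below them, at log2 ratios of -0.45 against EGFP and -0.41 against untreated cells. Both are about the size of the SD of a single probe set, 0.40 and 0.50 on the log2 scale in these comparisons, taken from the 2 brightest probe sets of 2245 genes. That SD covers different probes on 1 RNA extract and not the spread between cultures. Relb, the partner of the Nfkb2 product, was under the floor on every array, with signals of 38.4, 4.32 and 22.6. Rel, a subunit best known from lymphocytes, was also under the floor, with 54.6, 33.8 and 48.1. No ratio is given for either gene.

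The inhibitors gave different answers by probe set. Nfkbia encodes I-kappa-B alpha, the inhibitor that NF-kB itself induces, and has 4 probe sets. Its brightest (1420088_at) had signals of 1939 in untreated cells, 1919 with EGFP and 2303 with DGK-zeta. The last was the highest, with a log2 ratio of 0.26 over EGFP. The one that the platform annotation ties to the RefSeq transcript (1448306_at) had 323, 495 and 333. It was highest in EGFP cells, by 1.53-fold over untreated, and differed little between untreated and DGK-zeta cells (log2 ratio 0.04). A further set (1449731_s_at) had 365, 460 and 323, again with EGFP on top. The last (1420089_at) reached the floor on the EGFP array alone, at 108, against 78.7 and 66.5. Against EGFP the 3 sets measured on all arrays thus gave log2 ratios of 0.26, -0.51 and -0.57 for DGK-zeta cells, so the direction for Nfkbia rests on the probe set. That of the brightest set and of the others was the same under each of 3 other scalings of the arrays.

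Nfkbib encodes I-kappa-B beta, a related inhibitor, and has 1 probe set. Its signals were 277 in untreated cells, 346 with EGFP and 237 with DGK-zeta, highest in EGFP cells, with a log2 ratio of -0.54 for DGK-zeta against EGFP and 0.32 for EGFP against untreated. Against untreated cells the DGK-zeta array was at -0.22, and at 0.04 with median scaling over all named sets.

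In the kinase complex, Ikbkb encodes the catalytic kinase of the canonical pathway. By its brightest probe set (1426207_at) it had signals of 652 in untreated cells, 890.2 with EGFP and 795 with DGK-zeta, so both transfected samples were above the untreated one, by log2 ratios of 0.45 and 0.29. The next set (1426333_a_at) had 164, 184 and 116, with the DGK-zeta array lowest, at -0.50 against untreated and -0.67 against EGFP. The other Ikbkb sets stayed under the floor, between 9.41 and 37.5.

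Ikbkg encodes NEMO, the regulatory subunit of the complex, and all of its 4 probe sets were measured on all 3 arrays. The brightest (1421209_s_at) had signals of 579, 559 and 561 in untreated, EGFP and DGK-zeta cells, the narrowest range among the 13 sets, at 1.04-fold. Its next sets, 1454690_at with 492, 502 and 573 and 1421208_at with 233, 210.3 and 239.9, were slightly higher in DGK-zeta than in EGFP cells, both at a log2 ratio of 0.19. The dimmest (1450161_at) had 184, 198 and 118, lower in DGK-zeta than in EGFP cells by 1.68-fold.

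Tank encodes an adaptor that binds TRAF proteins and the kinases TBK1 and IKK-epsilon and is known both to assist and to restrain NF-kB and interferon signalling. Its 1 probe set (1421640_a_at) had signals of 376 in untreated cells, 368 with EGFP and 833 with DGK-zeta. The controls were alike, with a log2 ratio of -0.03, and the DGK-zeta array stood above both, by 2.27-fold over EGFP and 2.22-fold over untreated cells. Of the 6926 genes measured on at least 1 of the DGK-zeta and EGFP arrays, 99.9% had a lower ratio than Tank, and 99.2% had one in the comparison with untreated cells. Both comparisons share the DGK-zeta array. No second probe set of Tank is annotated, so the difference has no check by other probes.

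The genes with the pattern most like that of Tank, by Euclidean distance of both log2 ratios to the untreated array over 6433 genes measured on all 3 arrays, were Vps37c (0.05), Ccdc47 (0.07) and Mtfr1 (0.08). Within a distance of 0.25 lay 13 genes, of which 9 have another probe set measured on both control arrays. By that second set 2 of the 9 were higher in DGK-zeta than in EGFP cells and 0 were at least 2-fold higher. The 2 were Scoc, with a log2 ratio of 0.91, and Mmut, with 0.18, both named after their values were seen. For Vps37c the second set gave -1.23, for Ccdc47 -0.06 and for Mtfr1 -0.09. These genes were picked for a brightest set that was high on the single DGK-zeta array. Lower ratios by their second sets follow in part from that choice, so this count is no check of the Tank set.

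**Figure D2:**
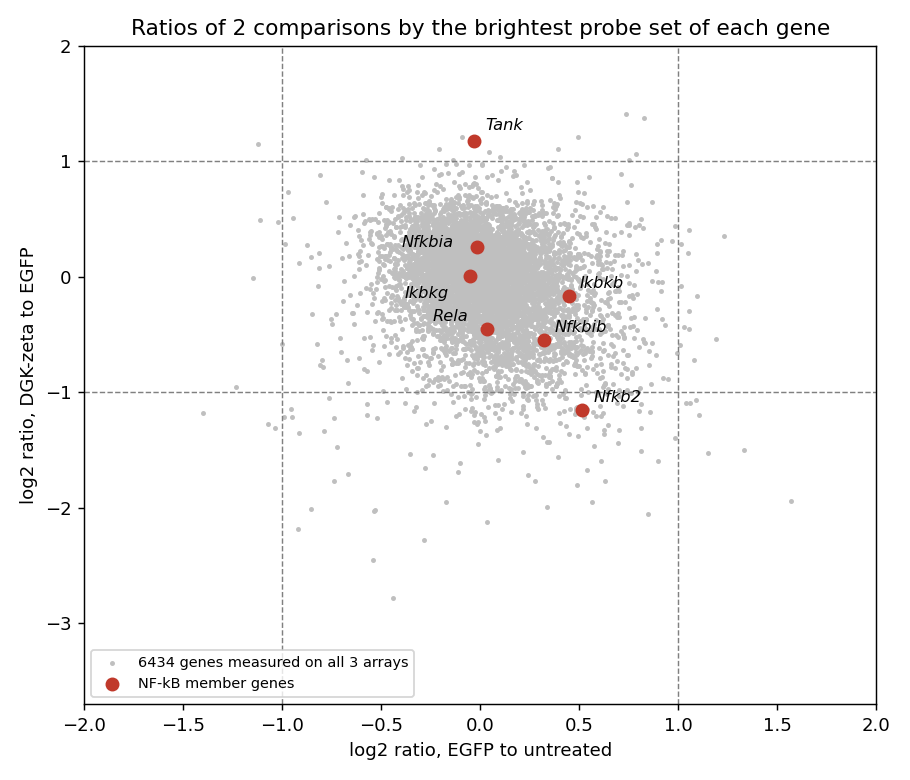
Log2 ratio of EGFP to untreated (horizontal) against that of DGK-zeta to EGFP (vertical) for the brightest probe set of 6434 genes measured on all 3 arrays; red points are the 7 measured member genes, dashed lines mark 2-fold, and 1 gene lies outside the plotted range. Both axes use the EGFP array, so a signal high on it moves a gene to the right and down. Tank lies above the upper line at 1.18 and Nfkb2 below the lower one at -1.15.

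Counted by the brightest probe set, 1 of 7 measured members was at least 2-fold higher in DGK-zeta than in EGFP cells (Tank) and 1 was at least 2-fold lower (Nfkb2). Over all genes 0.347% were higher and 2.84% lower by this rule. The members' median log2 ratio was -0.16, with 4 of 7 below 0, beside a median of -0.02 over all 6926 genes. Against untreated cells Tank was the 1 member at least 2-fold higher and 0 were lower, where 1.34% of all genes were higher and 2.80% lower. That median was -0.05, beside -0.02 for all genes. Between EGFP and untreated cells 0 of 7 members were 2-fold apart, where 0.361% of all genes were higher and 0.303% lower, and the median was 0.03 beside 0.02. In DGK-zeta cells Tank was one of the 0.272% of genes at least 2-fold higher than on both other arrays, and no member was among the 1.42% at least 2-fold lower than on both. Counts of 1 or 0 among 7 genes describe those genes and do not set the group apart.

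The call for Nfkb2 rested on the scaling. Its log2 ratio against EGFP was -0.87 after quantile normalization, -0.79 with median scaling over all named sets and -1.04 with median scaling over the sets measured on all arrays. Tank was at 1.18 as deposited and at 1.54 with median scaling over all named sets, which moves every ratio of DGK-zeta to EGFP up by 0.36. The same shift put the brighter Ikbkb set at 0.20 and Rela at -0.08, in place of -0.16 and -0.45. Ratios on the DGK-zeta array also moved with the signal itself. Named probe sets measured on all 3 arrays had a median log2 ratio against EGFP of -0.16 at mean signals under 300, of -0.08 between 300 and 1000 and of 0.08 above 1000. The Nfkb2 set, the dimmer Ikbkb set and the dimmest Ikbkg set, the lowest 3 of the 13, all lie in the first of these ranges. Nfkbib, at -0.54, and the Ikbkg set 1421208_at, at 0.19, lie in it too. The part of signal strength in the ratios of these sets was not tested.

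**Figure D3:**
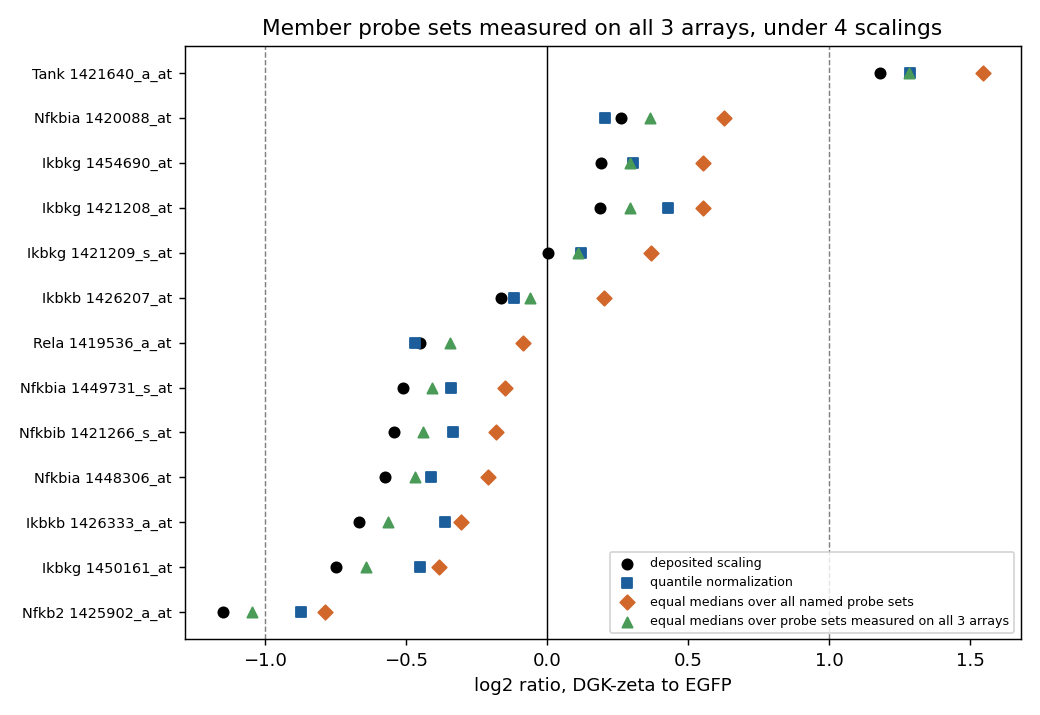
Log2 ratio of DGK-zeta to EGFP (horizontal) for the 13 member probe sets measured on all 3 arrays, under the deposited scaling (black circles) and 3 other scalings. Dashed lines mark 2-fold. Tank stays to the right of the 2-fold line under all 4, and Nfkb2 crosses it under quantile normalization (-0.87) and median scaling over all named sets (-0.79).

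One order of the arrays recurred among the members. Of the 13 probe sets 8, from 6 of the 7 measured genes, were highest on the EGFP array, where 30.9% of all named probe sets measured on the 3 arrays were. A gene with several sets was counted if any 1 of them was, and the share of all genes with such a set was not counted. In 6 of the 13, 1 each of Nfkb2, Rela, Nfkbia, Nfkbib, Ikbkb and Ikbkg, the DGK-zeta array was also the lowest, against 21.0% of all. By mean signal, the DGK-zeta array was lowest in 50.1% of all named sets measured under 300, 47.0% between 300 and 1000 and 32.5% above 1000. Among the 6, the sets of Nfkb2, Nfkbib, Ikbkb and Ikbkg lie in the first range, that of Nfkbia in the second and that of Rela in the third. The part of signal strength in this order was not tested. The brightest sets of Nfkbia, Ikbkb and Ikbkg had another order, and Rela was only 0.03 higher on the log2 scale in EGFP than in untreated cells. This order was noticed in these data, probe sets of 1 gene share their RNA, and all rest on 1 EGFP array. With median scaling over all named sets 6 of 13 were highest on the EGFP array, where 12.0% of all were. Under that scaling the sets of Rela, Nfkbia and Nfkbib no longer had EGFP highest and DGK-zeta lowest, while those of Nfkb2, Ikbkb and Ikbkg kept this order. Among the 8 sets highest on EGFP as deposited, the RefSeq-based Nfkbia set differed most between EGFP and untreated cells. Its log2 ratio was 0.61, followed by Nfkb2 at 0.52. The SD of a single probe set in that comparison was 0.27.

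Among the genes that feed the pathway, ligands were mostly under the floor. Of 10 annotated ligand genes, among them Tnf, Il1a and Il1b, only Il33, an alarmin of the interleukin-1 family, was measured, with signals of 208 in untreated cells, 297 with EGFP and 329.7 with DGK-zeta. Of 15 receptor genes 8 were measured on the DGK-zeta or the EGFP array, where 6926 of all 12393 genes were. The receptors had a median log2 ratio of -0.28 for DGK-zeta against EGFP beside -0.02 for all genes. Ltbr, the lymphotoxin beta receptor and an activator of the non-canonical pathway, had 769 in untreated cells, 1039.7 with EGFP and 503 with DGK-zeta. It was 2.07-fold lower in DGK-zeta than in EGFP cells and followed the order of Nfkb2. As for Nfkb2, the 2-fold call rested on the scaling: the log2 ratio was -1.05 as deposited, -0.96 after quantile normalization, -0.94 with median scaling over the sets measured on all arrays and -0.68 with that over all named sets. Tnfrsf12a, the receptor for TWEAK, had 5120 in untreated cells, 3038 with EGFP and 2353 with DGK-zeta, 2.18-fold lower than untreated, and its log2 ratio was -1.12 by this probe set and -1.08 by the other. With median scaling over all named sets it was -0.86, short of 2-fold. This gene was also lower in EGFP than in untreated cells, by 1.69-fold. Tlr4, the receptor for bacterial lipopolysaccharide, was at 0.61 against EGFP by one probe set and at -0.31 by the other. Tnfrsf1b, a receptor for TNF, was at -0.74 against EGFP, and Il1rap, the accessory chain of the interleukin-1 receptor, at 0.16.

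Kinases, adaptors and ubiquitin ligases that link receptors to the kinase complex held no gene 2-fold apart from EGFP by its brightest probe set. A dimmer set of Map3k3 (1426686_s_at), named after its values were seen, was 2.41-fold lower in DGK-zeta than in EGFP cells. The brightest Map3k3 set was at a log2 ratio of 0.25. Dimmer sets of Xiap and Irak1, also named after their values were seen, passed 2-fold against untreated cells. Xiap was 2.39-fold lower in DGK-zeta cells by 1456088_at, but at a log2 ratio of -0.07 by its brightest set. Irak1 was 2.01-fold higher in EGFP cells by 1438857_x_at, but at -0.04 by its brightest set. Of 25 annotated genes, 23 were measured, 11 with ratios against EGFP above and 12 below 0, at a median of -0.21. Tab3, a partner of the kinase TAK1, was at 0.46, Traf4 at -0.92 and Traf5 at -0.61. Mavs, the mitochondrial adaptor of RNA sensing, had signals of 271 in untreated cells, 536 with EGFP and 729.7 with DGK-zeta by its brightest probe set, 2.70-fold above untreated. Its other probe set gave -0.11 in that comparison, with 417, 551 and 387, and both sets put EGFP above untreated.

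None of the measured partners of TANK was 2-fold apart in any comparison. Of 6 annotated genes, 4 were measured, with ratios against EGFP between -0.69 and 0.21. Tbk1, the kinase that TANK binds, read 1168, 1193 and 1375 in the same order of arrays, which put DGK-zeta 0.21 above EGFP on the log2 scale, and 0.09 above it by the other set. Azi2, a related adaptor, was at 0.19, Traf2, an adaptor of TNF receptors, at -0.69 and the transcription factor Irf3 at -0.55.

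Other inhibitors of the pathway spread widely without a call by their brightest probe sets. The dimmer set of Commd1 (1424121_at), named after its values were seen, was 2.39-fold higher in DGK-zeta than in untreated cells. Its brightest set was at a log2 ratio of 0.86 in that comparison. Of 12 annotated genes, 8 were measured, 3 above and 5 below 0 against EGFP. Nkiras1, a small GTPase-like protein that binds I-kappa-B beta, had 214 in untreated cells, 209 with EGFP and 364 with DGK-zeta, so that DGK-zeta lay above EGFP by 0.80 on the log2 scale. Nfkbiz, a nuclear I-kappa-B protein, was at 0.63 by its brightest set, and its other set was under the floor in both transfected samples. Pdlim2, which promotes the removal of nuclear RELA, had 1489, 1362 and 756, and its log2 ratios for DGK-zeta were -0.85 to EGFP and -0.98 to untreated. Otulin, a deubiquitinase, was at -0.35. Among 7 measured nuclear cofactors, at a median of 0.18, Hdac2 was at 0.35, Crebbp at 0.32, Ncoa3 at -0.09 and Hdac3 at -0.31.

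By their brightest probe sets, target genes of NF-kB were near the background in the comparison with EGFP. Of 31 annotated genes, 18 were measured and 0 were 2-fold apart. Ratios of 10 were above and of 8 below 0, and the median was 0.05 beside -0.02 for all genes. Dimmer sets of some target genes, named after their values were seen, were at least 2-fold lower in DGK-zeta than in EGFP cells. Ccnd1 was at a log2 ratio of -2.28 by 1417419_at, but at 0.35 and 0.21 by its brighter sets. Csf1 was at -1.61 by 1448914_a_at and between -0.63 and -0.35 by its other sets. Gadd45b was at -1.07 by 1450971_at and at -0.18 by its brightest set. Cxcl5, a chemokine, was at 0.57, and Sod2, the mitochondrial superoxide dismutase, had 2506, 2447 and 3535, a log2 ratio of 0.53, with 0.19 by the other measured set. Cebpb, a transcription factor of the inflammatory response, was at -0.74, and its other set was at least 1.96-fold lower. Irf1, an interferon regulatory factor, had signals of 375 in untreated cells, 537 with EGFP and 355 with DGK-zeta, the order seen in Nfkb2. Ccl5, a chemokine, had 5.82 in untreated cells, 286 with EGFP and 244 with DGK-zeta. It was at least 2.66-fold higher in EGFP and at least 2.28-fold higher in DGK-zeta than in untreated cells. Junb had 326, 171 and 83.1 and was at least 3.04-fold lower in DGK-zeta than in untreated cells.

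**Figure D4:**
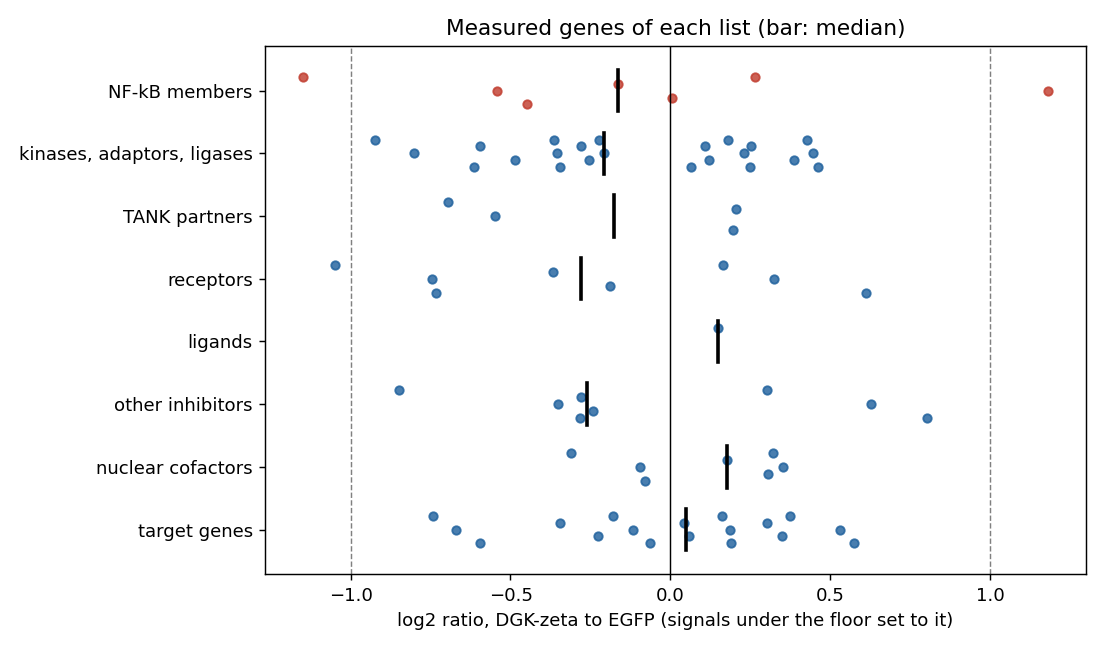
Log2 ratio of DGK-zeta to EGFP (horizontal) of each measured gene, by list (rows), with signals under the floor set to it; points are genes by their brightest probe set, black bars are list medians and dashed lines mark 2-fold. Tank at 1.18 and Nfkb2 at -1.15 are the members past 2-fold, Ltbr at -1.05 is the one gene past it among the other lists (between -0.96 and -0.68 under 3 other scalings), and target genes centre on 0.05.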

How the data were processed

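RNA of 3 samples was hybridised to 1 Affymetrix array each after one-cycle biotin labelling, per the labels. The authors deposited linear intensities per probe set, and the submitters' processing notes name MAS5 as the tool. The software version, scaling target, detection calls and genome build are not stated in those notes or the labels. The values show that the arrays had already been brought to 1 scale (their trimmed means, without the lowest and highest 2 percent, are 500.0 each), and no more scaling was applied. MAS5 signals weigh several probes near the 3' end, so RNA quality can move them. The precision is limited by the number of arrays.

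Of 22690 probe sets 20380 with 1 symbol were used; symbols came from the platform annotation, and list symbols were updated through RefSeq synonyms (GRCm38.p6). A gene was read by its brightest probe set (highest mean log2 signal), and all probe sets of members are reported. Ratios were compared by size, with 2-fold as the rule, since no test is possible. The members and the gene lists were chosen with earlier results of these data known. Named genes are all members, Dgkz, list genes 2-fold apart in any comparison, the 2 highest and 2 lowest of each list against EGFP and the 3 nearest patterns to the member with the widest range; marker and control genes and exceptions are marked. Alternatives were 3 other scalings, floors at the 25th and 75th percentile, a pseudocount of 16, other choices of probe set, and rules of 1.5-fold and 3-fold. The counting was tested on simulated data. Python 3.11.15, numpy 2.4.6, pandas 2.3.3 and matplotlib 3.10.9 were used.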

Additional observations from a re-analysis of the deposited data

How the results depend on the processing

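Among 168 ratios of member genes recomputed under the other settings, 156 moved by less than the SD of a single probe set, 12 moved by more and 18 changed sign, none of them a ratio of 2-fold or more. The count of members 2-fold apart between DGK-zeta and EGFP, 2 as reported, was 1 after quantile normalization, with median scaling over all named sets and by the mean over probe sets. It was 0 with a floor at the 75th percentile, with second-brightest probe sets and at a 3-fold rule. Against untreated cells the count of 1 became 0 with the same floor, second-brightest sets and the 3-fold rule, and 2 at 1.5-fold. Between EGFP and untreated cells a floor at the 25th percentile gave 1 in place of 0, Relb. The members' median log2 ratio against EGFP, -0.16, was 0.20 with median scaling over all named sets, 0.0044 and 0.050 with floors at the 25th and 75th percentile, and 0.014 without sets of suffix _x_at or _s_at. Against untreated cells it was 0.22 with that median scaling, 0.25 with the floor at the 75th percentile and 0.23 without those suffixes, in place of -0.05. For EGFP against untreated cells it was 0.15 with the mean over probe sets, in place of 0.03. At the floor of the 75th percentile, an alternative chosen after seeing the data for this count, 2 of 3 member sets were highest on the EGFP array, where 22.45% of all named sets were. The causes of these moves were not tested, except that second-brightest sets leave out Tank, which has 1 set, and that the highest floor lies above Nfkb2. That floor also lies above the signals of Tank on both control arrays, which puts its log2 ratio at 0.57 against each. No replicate could be left out, and no paired analysis was possible because each group has 1 array.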
